A study of Oryctolagus cuniculus with 12 samples.

Results

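The comparison was between the condylar cartilage and the superficial zone of the rabbit temporomandibular joint after osteoarthritis (OA) had been induced. Its members were chosen by their labels as the 6 OA libraries among the 12 of the series, 3 named as condylar cartilage cells and 3 as superficial zone cells. RNA was sequenced from tissue of Oryctolagus cuniculus labelled as wild type (WT), and OA was produced by surgical perforation of the articular disc with a 2.5 mm punch at its posterior-lateral side, with the attachments of the disc left intact. The other 6 libraries, 3 from each zone, came from WT control joints and served as a reference for the difference between the zones. The labels give neither the age of the animals nor the time after surgery, and they do not say whether both zones came from the same joint or whether the controls had an operation.

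The mandibular condyle is capped by a fibrocartilage. Its surface is a fibrous superficial zone that carries lubricin, fibrous collagens and progenitor cells, and the cartilage below it matures through proliferating and hypertrophic chondrocytes into mineralised tissue on bone. Hypertrophic chondrocytes and osteoblasts make collagenase 3 (MMP13), osteopontin (SPP1) and the transcription factor RUNX2, and osteocytes make DMP1, MEPE and PHEX, which act on phosphate and mineral. Bone marrow, where blood cells form, lies under the subchondral bone. The comparison asks which genes separate the deeper tissue from the surface once the joint is osteoarthritic.

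The 6 OA libraries held 10710067, 15767396 and 16769536 estimated counts in the superficial zone and 15858863, 16099688 and 14291563 in the condylar cartilage, over 14621 genes. Levels are given for libraries 1, 2 and 3 of a zone in that order, as CPM, counts scaled to the adjusted total of the library. Libraries 2 and 3 of the OA superficial zone differed by a biological coefficient of variation of 0.0404, and condylar cartilage libraries 1 and 2 of the OA state by 0.0572, while every other pair of the same group differed by 0.199 to 0.580. Each such pair was summed and counted as 1 sample in the main test, which left 2 samples in each OA zone, and counts from separate libraries are given beside the main ones. Library 1 of the superficial zone stood apart: 0.120% of its counts came from mitochondrial mRNA, against 2.10% and 2.12% in libraries 2 and 3. Its summed level of the cartilage matrix list was 86628 CPM, against 8785 and 8836 CPM in the other libraries of that zone. Most calls that were lost without library 1 are named as such. With pairs summed, leaving out library 1 left 1 sample, the summed pair, in the OA superficial zone. Calls without library 1 thus rest on a lone sample that is assumed to vary like the other groups. Calls that were lost without library 3 of the OA condylar cartilage are not marked gene by gene. The tissue is bulk, and fewer cells of a type cannot be told apart from less RNA per cell.

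The labels of the zones were checked against their markers. Lubricin (PRG4), the lubricating proteoglycan of the joint surface, stood at 109, 120.3 and 61.4 CPM in the condylar cartilage and 239, 445 and 453 CPM in the superficial zone. Every superficial zone library was therefore above every condylar cartilage library, by 3.91 times in the fit (log2 fold change -1.97 ± 0.49, adjusted p = 0.0411). Type II collagen (COL2A1), the main collagen of cartilage, stood at 13481, 12891 and 25008 CPM in the condylar cartilage and 51234, 2511 and 2581 CPM in the superficial zone. Here library 1 of the superficial zone was the highest of all 6 and the zones overlapped (log2 fold change -0.49 ± 1.43, adjusted p = 0.832), whereas without that library the log2 fold change was 2.90 with an adjusted p of 0.48. The cartilage matrix list had 14 genes tested and a median of -0.17 on the log2 scale, 1.94 without library 1, and 0.29 when counts were scaled by library totals alone. The surface marker thus separated the zones as labelled, while type II collagen did so in libraries 2 and 3 of the superficial zone but not in library 1.

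Of 14438 genes tested, 343 were higher in the OA condylar cartilage (2.38%) and 592 were higher in the OA superficial zone (4.1%) at an adjusted p under 0.05 (edgeR quasi-likelihood test, Benjamini-Hochberg adjustment). The genes higher in the condylar cartilage had a median log2 fold change of 2.41 and those higher in the superficial zone one of -2.37, against 0.01 over all genes tested. With the 12 libraries kept separate, 1217 genes (8.37%) and 1662 genes (11.4%) passed, and these included all 343 and all 592. With pairs summed, leaving out library 1 of the superficial zone leaves 1 sample in that zone. Without library 1 of the superficial zone, 367 (2.51%) and 397 (2.72%) passed, of which 178 and 295 were among the 343 and the 592. Without library 3 of the condylar cartilage, which leaves 1 sample in that zone, 89 (0.611%) and 15 (0.103%) passed. Scaling by library totals alone moved the median of all genes to 0.25 and gave 338 genes higher in the condylar cartilage and 302 higher in the superficial zone. All 3 libraries of the condylar cartilage were above all 3 of the superficial zone for 23.0% of the genes tested and below for 23.9%. These shares count the near-duplicate libraries separately. None of the 343 and 592 called genes overlapped between the zones, so lack of overlap in a called gene is no separate result. Of 130 called genes of the lists and named rule described here, 104 still passed without library 1 of the superficial zone and 32 without library 3 of the condylar cartilage, and none changed sign in those 2 fits. In the main test 3974 genes had an unadjusted p under 0.05, to be set beside the unadjusted counts of lists in OA given below. Fitted on the OA libraries alone with pairs summed, 0 genes passed the edgeR test and 2401 had an unadjusted p under 0.05, while limma-voom called 134 genes and DESeq2 2102 over all groups.

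PHEX, an endopeptidase of osteocytes that acts in phosphate balance, led the genes higher in the OA condylar cartilage with 261, 255 and 381 CPM in the condylar cartilage and 28.6, 20.8 and 20.8 CPM in the superficial zone (log2 fold change 3.70 ± 0.39, adjusted p = 0.00766). The lowest condylar cartilage library stood far above the highest superficial zone library, and the fitted ratio was 13. The neural cadherin CDH2, a cell adhesion protein, stood at 273, 276 and 325 CPM in the condylar cartilage and 28.2, 14.4 and 16.1 CPM in the superficial zone (log2 fold change 3.80 ± 0.53, adjusted p = 0.00852). MME, the membrane endopeptidase neprilysin, reached 95.7, 101 and 161 CPM in the condylar cartilage and 12, 8.05 and 9.32 CPM in the superficial zone (log2 fold change 3.66 ± 0.50, adjusted p = 0.00852). The rule that chose the named genes required no overlap between the zones. Each of these 3 cell surface proteins was highest in library 3 of the condylar cartilage.

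The actin-bundling protein of leukocytes, LCP1, showed 217, 211 and 131 CPM in the condylar cartilage and 24.2, 23.5 and 23.2 CPM in the superficial zone (log2 fold change 2.86 ± 0.40, adjusted p = 0.00852), and in contrast to PHEX it was lowest in library 3 of the condylar cartilage. ATP8A1, a phospholipid flippase, had the same order within the zone, with 96.4, 95.6 and 53 CPM in the condylar cartilage and 9.8, 9.98 and 11 CPM in the superficial zone (log2 fold change 2.87 ± 0.40, adjusted p = 0.00852). A pair of mitotic proteins also stood among the 12 genes of smallest p: TPX2, a spindle assembly factor, and the kinesin KIF14, which are described with the cell cycle genes. The remaining genes of the 12 had log2 fold changes of 2.22 to 3.41. They were the Slit receptor ROBO2 (2.22), TPD52 (2.49), the sialyltransferase ST3GAL6 (2.51), KCTD16, a partner of GABA-B receptors (3.13), and NCKAP5 (3.41), all with an adjusted p of 0.00814 to 0.009.

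**Figure D1:**
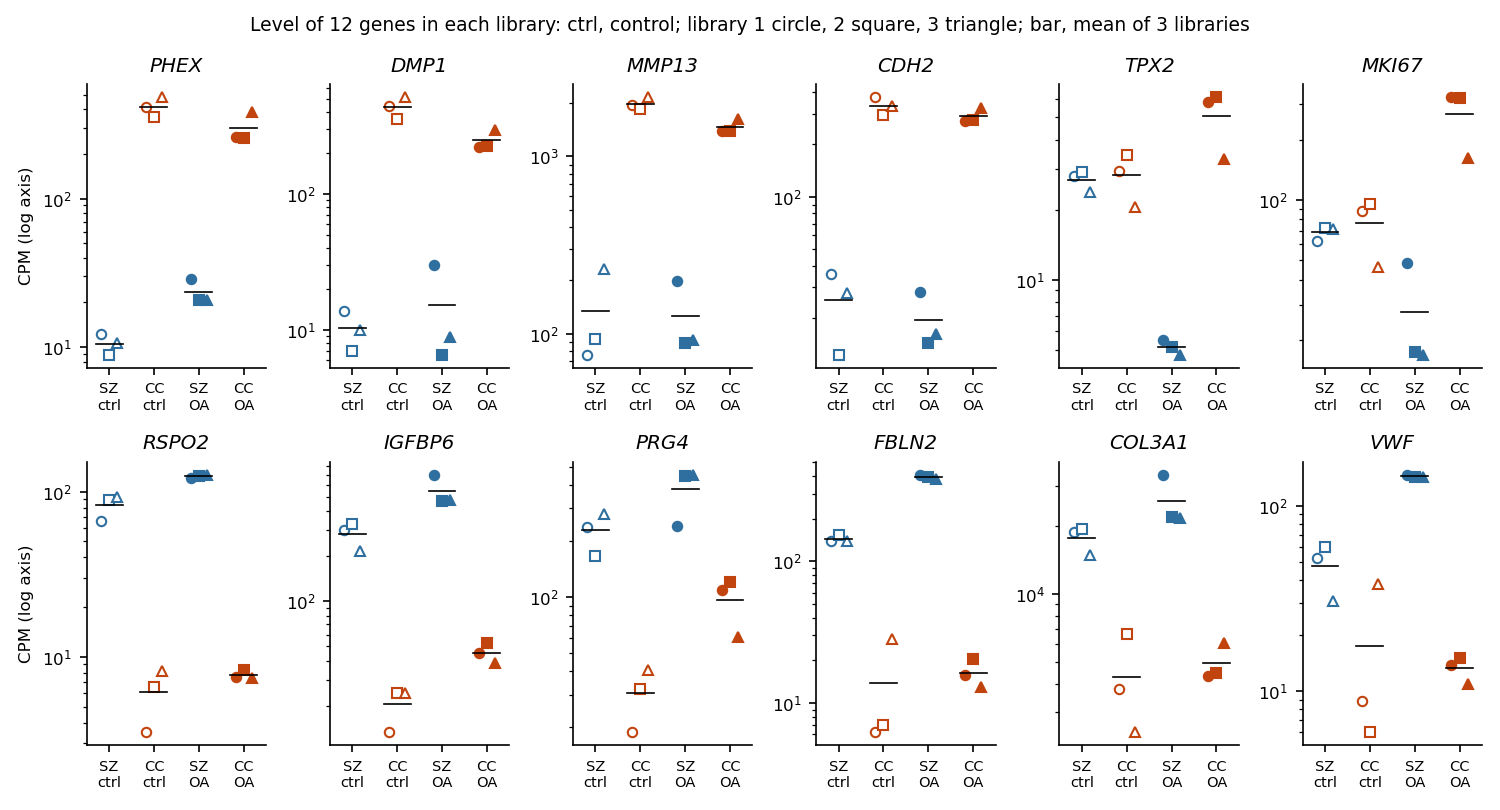
CPM of 12 genes on a log axis in each of the 12 libraries, grouped by zone (SZ, superficial zone, blue; CC, condylar cartilage, orange) and state (open symbols, control, ctrl; filled symbols, OA), with the mean of the 3 libraries of a group as a bar. In OA, the 3 libraries of each zone do not overlap for any of the 12 genes, as for every called gene. TPX2, MKI67 and VWF are the 3 panels in which the control zones overlap.

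Some genes of bone cells and of mineralising cartilage were higher in the OA condylar cartilage. In the osteoblast and osteocyte list, 4 of 10 genes tested were higher there and 1 was higher in the superficial zone, with a list median of 2.92 on the log2 scale against 0.01 over all genes. DMP1, a matrix phosphoprotein of osteocytes, stood at 223, 226 and 295 CPM in the condylar cartilage and 30.4, 6.59 and 9 CPM in the superficial zone (log2 fold change 3.78 ± 0.61, adjusted p = 0.00928). MEPE, another phosphoglycoprotein of osteocytes, stood at 176, 178 and 185 CPM in the condylar cartilage and 17, 2.28 and 3.61 CPM in the superficial zone (log2 fold change 4.23 ± 1.08, adjusted p = 0.0428). In both genes library 1 of the superficial zone was several times above libraries 2 and 3 of that zone and still below every condylar cartilage library. Separate libraries gave 6 genes higher in the condylar cartilage and 1 higher in the superficial zone. The member higher in the superficial zone was PDPN, podoplanin, which marks early osteocytes and also surface fibroblasts (log2 fold change -1.54 ± 0.35, adjusted p = 0.0279).

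In the hypertrophy and mineralisation list, 5 of 19 genes tested were higher in the condylar cartilage and 0 in the superficial zone, with 7 and 0 from separate libraries. All 3 condylar cartilage libraries were above all 3 of the superficial zone for 9 of the 19, against 23.0% of all genes. MMP13, the collagenase that cleaves type II collagen, stood at 1389.7, 1389 and 1636 CPM in the condylar cartilage and 198, 89.2 and 91.6 CPM in the superficial zone (log2 fold change 3.39 ± 0.60, adjusted p = 0.0123). SPP1, osteopontin, showed 1383, 1398 and 2632 CPM in the condylar cartilage and 442, 106 and 111 CPM in the superficial zone (log2 fold change 2.87 ± 0.76, adjusted p = 0.0482). Both were higher in each condylar cartilage library, and both were highest within the superficial zone in library 1. RUNX2, the transcription factor of hypertrophy and bone, gave 1228, 1259.7 and 1502 CPM in the condylar cartilage and 325, 532 and 527 CPM in the superficial zone (log2 fold change 1.68 ± 0.39, adjusted p = 0.0305). MEF2C, which acts in the same programme, gave 878, 908 and 1398 CPM in the condylar cartilage and 182, 220 and 221 CPM in the superficial zone (log2 fold change 2.51 ± 0.42, adjusted p = 0.00977). In these 2 factors library 1 was the lowest of the superficial zone, and without it RUNX2 no longer passed (adjusted p = 0.0622). Collagen X (COL10A1), the collagen of hypertrophic chondrocytes, stood at 2082, 1976 and 3157 CPM in the condylar cartilage and 1845, 184 and 193 CPM in the superficial zone. Its zones did not overlap, but library 1 of the superficial zone came close to the condylar cartilage and the difference did not pass the test (log2 fold change 1.35 ± 1.62, adjusted p = 0.587).

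By length-scaled levels (the deposited TPM values, which divide by transcript length), SPP1 was the most abundant of the list members higher in the condylar cartilage, at 2556, 2615 and 4476 TPM in that zone, followed by MMP13 at 1171, 1192 and 1267 TPM. Among the list members higher in the superficial zone, collagen III (COL3A1) was the most abundant, at 8268, 9513 and 9491 TPM in the superficial zone.

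Osteoclasts, the cells that resorb bone and mineralised cartilage, were represented by 7 genes tested, and 2 were higher in the condylar cartilage. ATP6V0D2, a subunit of the proton pump, had 25.4, 24.5 and 51.4 CPM in the condylar cartilage and 4.83, 1.58 and 1.94 CPM in the superficial zone (log2 fold change 3.60 ± 0.65, adjusted p = 0.0127). The calcitonin receptor CALCR passed narrowly (log2 fold change 3.74 ± 1.01, adjusted p = 0.0499) and did not without library 1 (adjusted p = 0.0948). The summed level of the list was 1722, 1699 and 2272 CPM in the condylar cartilage and 1782, 507 and 485 CPM in the superficial zone. Library 1 of the superficial zone was therefore within the range of the condylar cartilage, and libraries 2 and 3 were below it. With separate libraries 3 genes passed. Without library 1, 3 of the genes passed and the list median moved from 1.35 to 3.50.

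Proliferation genes differed between the zones in OA. Of 24 cell cycle genes tested, 13 were higher in the condylar cartilage and 0 in the superficial zone by the edgeR test (0 also at an unadjusted p under 0.05). The median log2 fold change was 2.29, and 21 genes had all condylar cartilage libraries above all superficial zone libraries, against 23.0% of all genes. In the control joints the same list had a median of -0.03 and no member past the test in either direction by edgeR, DESeq2 or limma-voom (0 also at an unadjusted p under 0.05). In OA, separate libraries gave 21 calls of the 24, DESeq2 19, limma-voom 0, and edgeR called 9 without library 3 of the condylar cartilage and 15 without library 1 of the superficial zone. MKI67, the marker protein of cycling cells, stood at 325, 324 and 162 CPM in the condylar cartilage and 48.7, 17.4 and 16.9 CPM in the superficial zone (log2 fold change 2.89 ± 0.56, adjusted p = 0.0157). TPX2 stood at 57.9, 60.8 and 33.1 CPM in the condylar cartilage and 5.52, 5.14 and 4.74 CPM in the superficial zone (log2 fold change 3.15 ± 0.41, adjusted p = 0.00814). BUB1, a mitotic checkpoint kinase, stood at 29.6, 24.3 and 12.8 CPM in the condylar cartilage and 1.38, 1.4 and 1.29 CPM in the superficial zone (log2 fold change 3.86 ± 0.63, adjusted p = 0.00942). For all 3 genes the lowest condylar cartilage value was in library 3, and it was still more than 3 times the highest superficial zone value.

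The other members past the test were the kinase CDK1 (2.77), its cyclin CCNB2 (2.85), the checkpoint kinase BUB1B (2.92), the kinesins KIF11 (2.71), KIF20A (2.30) and KIF23 (2.65), the topoisomerase TOP2A (2.45), the kinetochore protein CENPF (2.33), the cytokinesis protein ANLN (2.17) and the ribonucleotide reductase subunit RRM2 (2.75), each given as a log2 fold change. The replication factors of the list, MCM2, MCM3, MCM5 and PCNA, had log2 fold changes of 0.83, 1.29, 1.05 and 1.33 and did not pass. KIF14, outside the list, stood at 27.1, 26.7 and 14.5 CPM in the condylar cartilage and 2.21, 1.81 and 1.83 CPM in the superficial zone (log2 fold change 3.38 ± 0.49, adjusted p = 0.009).

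The summed level of the 24 genes was 985, 994 and 579 CPM in the OA condylar cartilage and 219, 129 and 119.8 CPM in the OA superficial zone. In control it was 539, 599 and 326 CPM in the condylar cartilage and 575, 609 and 484 CPM in the superficial zone. The OA superficial zone was thus below every control library, and OA condylar cartilage 1 and 2 were above every control library while library 3 lay within the control range. Whether the difference between the zones was larger in OA than in control was tested as an interaction. Over all genes, 0 of 14438 passed it (0.0%) with the edgeR test, 1265 had an unadjusted p under 0.05 (8.76%), DESeq2 called 106 and limma-voom 0. For the cell cycle list, 21 of 24 genes had an unadjusted p under 0.05 and 0 passed after adjustment. TPX2 had an adjusted p of 0.245. With the 12 libraries kept separate, 12 of the 24 passed, against 0.674% of all genes, and without library 1 of the OA superficial zone and library 3 of the control condylar cartilage 8 passed, against 0.664%. The zone difference of those proliferation genes was therefore called as different between OA and control in these 2 fits and not in the main one. The fit on separate libraries counts the near-duplicate libraries as independent samples.

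In OA, summed levels of blood-forming cell genes were high in the same libraries as the proliferation genes. The erythroid list of 9 genes tested summed to 1444, 1379.7 and 426 CPM in the OA condylar cartilage and 134, 21.2 and 20.8 CPM in the OA superficial zone, against 20.7, 13.7 and 54.7 CPM in the control condylar cartilage and 22.3, 17.4 and 13.9 CPM in the control superficial zone. The neutrophil and marrow list of 12 genes summed to 3081, 3009 and 1910.2 CPM and 1287, 101 and 97.1 CPM in the OA zones, and to 1916, 2279.6 and 1519 CPM and 119, 112 and 264 CPM in the control zones. In both lists the OA condylar cartilage was lowest in library 3, as it was for the proliferation genes, and library 1 of the superficial zone was far above libraries 2 and 3. No member of either list was at 0 in an OA library. The part of these cells in the zone difference of the proliferation genes was not tested.

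Of the 9 erythroid genes, 2 passed in the main test, 8 with separate libraries and 6 without library 1 of the superficial zone. ALAS2, the first enzyme of haem synthesis in red cell precursors, stood at 468, 438 and 146 CPM in the condylar cartilage and 40.6, 9.75 and 9 CPM in the superficial zone (log2 fold change 3.60 ± 0.86, adjusted p = 0.0342). EPB42, a protein of the red cell membrane, stood at 75.6, 73.3 and 22.4 CPM in the condylar cartilage and 5.52, 1.28 and 0.808 CPM in the superficial zone (log2 fold change 3.98 ± 0.85, adjusted p = 0.0228). All 12 neutrophil and marrow genes had a positive log2 fold change, with a median of 3.62, but 0 passed the edgeR test on summed pairs (11 at an unadjusted p under 0.05), DESeq2 called 2 and limma-voom 0, whereas 11 passed with separate libraries and 11 without library 1 of the superficial zone. The median of the list without that library was 6.73. Eosinophil major basic protein (PRG2) stood at 116, 113 and 27.8 CPM in the condylar cartilage and 6.35, 0.642 and 0.269 CPM in the superficial zone (log2 fold change 4.52 ± 1.10, adjusted p = 0.0361). LYZ, the lysozyme of myeloid cells, stood at 277, 281 and 107 CPM in the condylar cartilage and 26.6, 22.1 and 19.8 CPM in the superficial zone (log2 fold change 3.03 ± 0.47, adjusted p = 0.00928). These genes shared 1 order, with libraries 1 and 2 of the condylar cartilage highest, library 3 lower, and the superficial zone lowest. Complement C1QB and C1QC, which tissue macrophages make, went the other way (log2 fold changes -2.63 and -2.43), and with LYZ they were the 3 of 15 macrophage and myeloid genes past the test. Without library 1 of the superficial zone neither C1QB nor C1QC passed (adjusted p = 0.181 and 0.061).

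**Figure D2:**
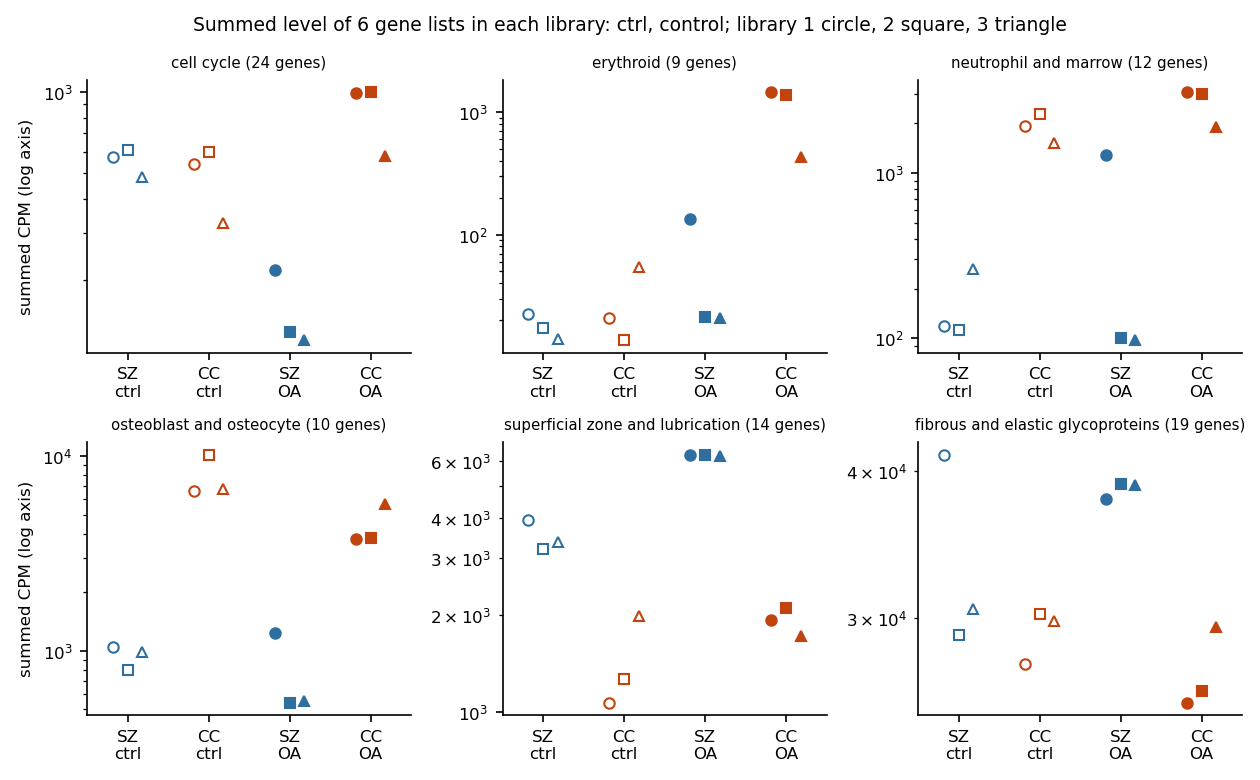
Summed CPM (log axis) of the genes tested in 6 lists, in each of the 12 libraries by zone and state (open symbols, control, ctrl; filled symbols, OA). The erythroid and cell cycle sums of the OA condylar cartilage are lower in library 3 than in libraries 1 and 2. Library 1 of the OA superficial zone lies well above libraries 2 and 3 in the cell cycle, erythroid, marrow and osteoblast panels.

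Among the genes higher in the OA superficial zone, RSPO2, a secreted amplifier of Wnt signalling, had the smallest p, with 7.52, 8.29 and 7.45 CPM in the condylar cartilage and 122, 125 and 127 CPM in the superficial zone (log2 fold change -4.01 ± 0.43, adjusted p = 0.00766). Its 3 superficial zone libraries lay within a few CPM of each other, and the fitted ratio was 16.1. IGFBP6, a binding protein of insulin-like growth factors, stood at 45, 52.4 and 38.6 CPM in the condylar cartilage and 700.4, 466 and 473 CPM in the superficial zone (log2 fold change -3.74 ± 0.44, adjusted p = 0.00814). PAPPA2, a protease that cleaves another such binding protein, stood at 2.17, 2.04 and 1.76 CPM in the condylar cartilage and 63.3, 27.4 and 25.6 CPM in the superficial zone (log2 fold change -4.52 ± 0.61, adjusted p = 0.00852). HBEGF, a ligand of the EGF receptor, had 5.91, 7.85 and 5.35 CPM in the condylar cartilage and 47.1, 66 and 62.6 CPM in the superficial zone (log2 fold change -3.18 ± 0.40, adjusted p = 0.00814). For these 4 genes too, the lack of overlap between the zones was required by the rule. For IGFBP6 and PAPPA2 library 1 was the highest.

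GFRA3, the co-receptor for artemin found on nerve-associated cells, showed the widest gap of the 12 named genes with 0.502, 1.05 and 0.542 CPM in the condylar cartilage and 24, 16.8 and 18.4 CPM in the superficial zone (log2 fold change -4.93 ± 0.62, adjusted p = 0.00814). The secreted carboxypeptidase relatives CPXM1 and CPXM2 had log2 fold changes of -2.92 and -4.33, and MASP1, a protease of the lectin pathway of complement, one of -2.96. MATN4, a matrilin that links matrix filaments, and PODN, a small leucine-rich proteoglycan, had log2 fold changes of -3.85 and -3.70. The membrane protein PLXDC1 (-2.92) and the small GTPase GEM (-2.83) completed the 12, with adjusted p of 0.00814 to 0.00852 after RSPO2.

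The superficial zone and lubrication list held 14 genes tested, of which 8 were higher in the superficial zone and 1 in the condylar cartilage, with a median of -2.05. THBS4, a thrombospondin of tendon and fibrous tissue, stood at 183, 202 and 182 CPM in the condylar cartilage and 2048, 1219 and 1219 CPM in the superficial zone (log2 fold change -3.12 ± 0.56, adjusted p = 0.0126). DPT, dermatopontin, stood at 15.9, 20.4 and 10.4 CPM in the condylar cartilage and 65.3, 282 and 280 CPM in the superficial zone (log2 fold change -3.60 ± 0.71, adjusted p = 0.017). CREB5, a transcription factor that drives lubricin expression in synovial joints, stood at 66.7, 74.9 and 58.7 CPM in the condylar cartilage and 169, 395 and 398 CPM in the superficial zone (log2 fold change -2.13 ± 0.44, adjusted p = 0.0195). For DPT and CREB5 library 1 was the lowest of the superficial zone, as it was for PRG4, and for THBS4 it was the highest. The others past the test were CILP, CLU, TSPAN15 and PDPN, with log2 fold changes of -2.45, -2.26, -2.36 and -1.54. VIT, vitrin, was the exception, with 42.8, 39 and 65 CPM in the condylar cartilage and 16.7, 15.1 and 16.7 CPM in the superficial zone (log2 fold change 1.70 ± 0.43, adjusted p = 0.0427). Without library 1, CILP and CLU no longer passed (adjusted p = 0.202 and 0.139), nor did VIT (0.102). Separate libraries gave 1 genes higher in the condylar cartilage and 10 higher in the superficial zone.

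Some fibrous and elastic matrix genes were also higher at the surface. Of 11 fibrous collagens tested, 5 were higher in the superficial zone and 0 in the condylar cartilage, and of 19 fibrous and elastic glycoproteins 8 and 0 were. With separate libraries 6 of the collagens and 10 of the glycoproteins were higher in the superficial zone. The median of the collagens was -1.60 on the log2 scale and -0.69 without library 1 of that zone. COL3A1 stood at 4313, 4464 and 6032 CPM in the condylar cartilage and 33666, 21928 and 21687 CPM in the superficial zone (log2 fold change -2.41 ± 0.55, adjusted p = 0.0292). COL14A1, which binds to collagen fibrils, stood at 79.2, 104 and 66.9 CPM in the condylar cartilage and 265, 1501 and 1487 CPM in the superficial zone (log2 fold change -3.47 ± 0.88, adjusted p = 0.0418). COL8A1, COL8A2 and COL5A3, with log2 fold changes of -1.60, -2.75 and -2.94, were the other collagens past the test. Library 1 was close to libraries 2 and 3 for COL8A1 and COL8A2, well below them for COL14A1 and above them for COL3A1 and COL5A3; COL3A1 did not pass without it (adjusted p = 0.0621).

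FBLN2, a fibulin of elastic and basement membrane matrix, had 15.8, 20.6 and 12.9 CPM in the condylar cartilage and 408, 393 and 380.3 CPM in the superficial zone (log2 fold change -4.67 ± 0.69, adjusted p = 0.009). MFAP4, a glycoprotein of elastic fibres, had 11.8, 15.9 and 8.26 CPM in the condylar cartilage and 210.5, 306 and 292 CPM in the superficial zone (log2 fold change -4.52 ± 0.71, adjusted p = 0.00928). Fibrillin-1 (FBN1), which forms the microfibrils, had 249, 262 and 229.7 CPM in the condylar cartilage and 1074, 1653 and 1656 CPM in the superficial zone (log2 fold change -2.49 ± 0.61, adjusted p = 0.0366). In these 3 genes all superficial zone libraries were several times above all condylar cartilage libraries. FBLN1, FBLN5, MFAP5, THBS2 and the cross-linking enzyme LOXL1 made up the rest, of which MFAP5 had the widest gap (log2 fold change -4.08), and FBLN1 and LOXL1 did not pass without library 1 of the superficial zone (adjusted p = 0.052 and 0.0518). Among 12 small leucine-rich proteoglycans, PODN and keratocan (KERA; -3.58) passed. In that list separate libraries gave 1 genes higher in the condylar cartilage and 6 higher in the superficial zone, and without library 1 of the superficial zone 6 passed, all higher in the superficial zone. THY1 (-2.72), PRRX2 (-3.93) and S100A4 (-1.71), markers of the fibroblast and tendon lineage, passed among 9 such genes.

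**Figure D3:**
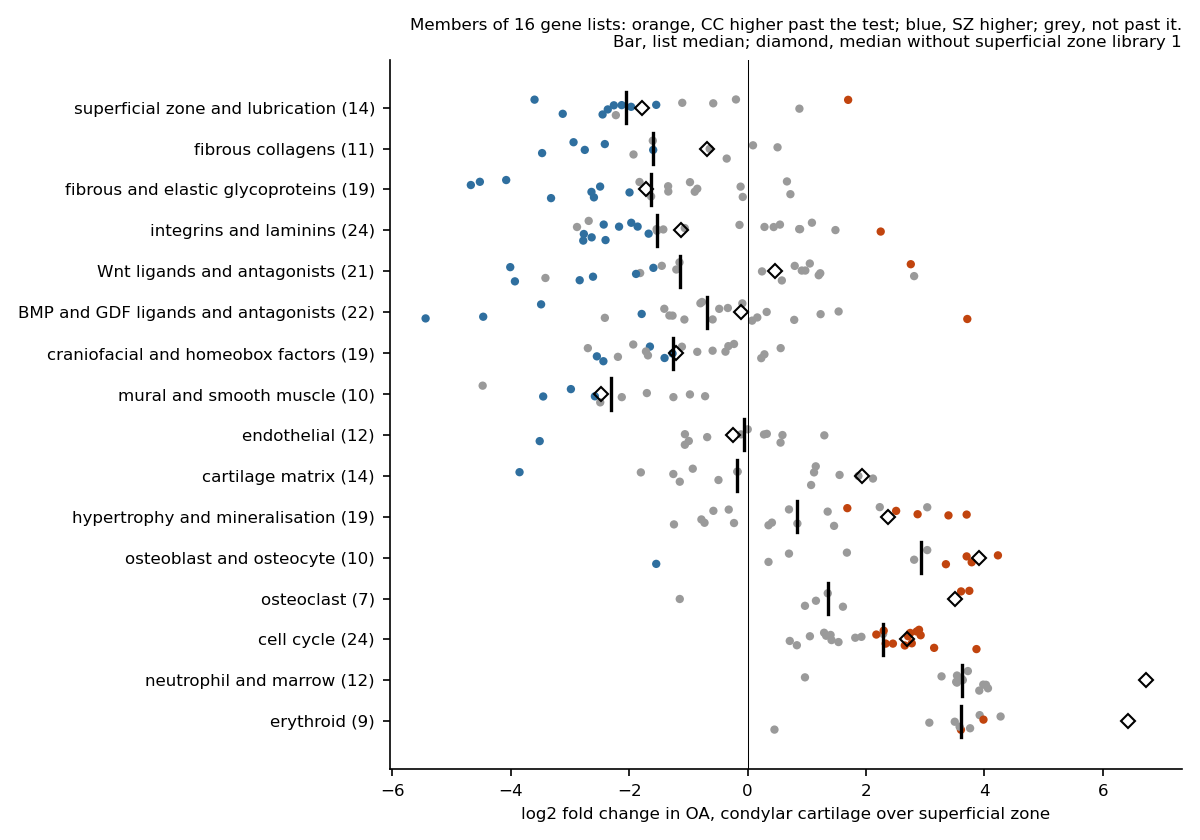
Log2 fold change in OA (condylar cartilage over superficial zone) of each gene tested in 16 lists, with the number tested in brackets, the list median as a bar and the median without superficial zone library 1 as a diamond. The superficial zone and lubrication median is -2.05 and the cell cycle median 2.29, and the cartilage matrix median moves from -0.17 to 1.94 without that library.

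Secreted signals and their antagonists differed in both directions. Of 21 Wnt genes tested, 6 were higher in the superficial zone and 1 in the condylar cartilage. SFRP2, a soluble Wnt antagonist, stood at 33.9, 40.6 and 40.9 CPM in the condylar cartilage and 241, 954 and 945 CPM in the superficial zone (log2 fold change -3.93 ± 0.93, adjusted p = 0.033). Its relative SFRP4 stood at 20.1, 20.3 and 15.4 CPM in the condylar cartilage and 168, 87.7 and 86.7 CPM in the superficial zone (log2 fold change -2.84 ± 0.53, adjusted p = 0.0144). DKK2 and DKK3, of the dickkopf family, had log2 fold changes of -2.61 and -1.59, and AXIN2, a target and inhibitor of Wnt signalling, one of -1.88; RSPO2 was the other. DKK1, which blocks the Wnt co-receptor, was the 1 member higher in the condylar cartilage, with 42.4, 40.8 and 56.9 CPM in the condylar cartilage and 10.8, 4.73 and 3.66 CPM in the superficial zone (log2 fold change 2.76 ± 0.59, adjusted p = 0.0226). Members of the dickkopf family were thus higher in different zones. The median of the Wnt list was -1.15, and it turned to 0.47 without library 1 of the superficial zone, where 4 genes were higher in the superficial zone and 4 in the condylar cartilage. DKK3 and AXIN2 did not pass in that fit (adjusted p = 0.0983 and 0.0601). Separate libraries gave 2 genes higher in the condylar cartilage and 7 higher in the superficial zone.

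In the BMP and GDF list, 4 of 22 genes were higher in the superficial zone and 1 in the condylar cartilage. BMP3, a BMP of bone that opposes other BMPs, stood at 51.9, 47.6 and 62.7 CPM in the condylar cartilage and 5.93, 2.92 and 2.91 CPM in the superficial zone (log2 fold change 3.71 ± 0.65, adjusted p = 0.0112). GDF6, a growth factor of joint development, stood at 0.167, 0.111 and 0.135 CPM in the condylar cartilage and 8.14, 4.79 and 4.36 CPM in the superficial zone (log2 fold change -5.44 ± 0.91, adjusted p = 0.01), so its ratio rests on few counts in the condylar cartilage. The antagonists chordin (CHRD) and NBL1 had log2 fold changes of -4.47 and -3.49, and FSTL1 one of -1.79. FGF7 (-2.40) and FGF10 (-2.81), ligands made by mesenchymal cells, were higher in the superficial zone among 15 FGF genes. TGFBR3, the co-receptor betaglycan (-1.45), and LRRC32, which holds latent TGF-beta at the cell surface (-2.71), were so among 14 TGF-beta genes. BOC, a hedgehog co-receptor, had a log2 fold change of -1.89 and was the 1 of 14 hedgehog and PTHrP genes past the test. Over all genes tested, 4.1% were higher in the superficial zone and 2.38% in the condylar cartilage, so 1 of 14 is close to the share of all genes. Without library 1 of the superficial zone BOC did not pass (adjusted p = 0.0981), and in that fit 1 gene of the list was higher in the condylar cartilage and 0 in the superficial zone. With separate libraries, those higher in the superficial zone numbered 8 of the BMP and GDF list, 6 of the FGF list, 3 of the TGF-beta list and 4 of the hedgehog list.

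Of 24 integrins and laminins, 9 were higher in the superficial zone and 1 in the condylar cartilage. LAMA3, a laminin chain of epithelial-type basement membranes, stood at 11.4, 10.2 and 9.42 CPM in the condylar cartilage and 59.6, 80.2 and 75.8 CPM in the superficial zone (log2 fold change -2.77 ± 0.45, adjusted p = 0.00928). ITGA3, a receptor chain for laminin, stood at 3.29, 3.92 and 3.18 CPM in the condylar cartilage and 25.3, 17.4 and 17 CPM in the superficial zone (log2 fold change -2.63 ± 0.42, adjusted p = 0.00928). ITGA4, a chain carried by leukocytes and their precursors, was the exception with 46.8, 51 and 33.4 CPM in the condylar cartilage and 9.11, 8.7 and 7.86 CPM in the superficial zone (log2 fold change 2.25 ± 0.44, adjusted p = 0.0162). ITGA5, ITGA8, ITGA9, ITGA11, ITGB5, LAMB2 and LAMC1 were the others, with log2 fold changes of -2.78 to -1.67. Without library 1 of the superficial zone 6 of the 24 were higher in the superficial zone, and ITGA5, ITGA9, ITGA11 and LAMB2 did not pass (adjusted p = 0.169, 0.149, 0.15 and 0.0812). Separate libraries gave 2 genes higher in the condylar cartilage and 14 higher in the superficial zone.

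Of 19 patterning factors of the face and skeleton, 5 were higher in the superficial zone and 0 in the condylar cartilage, with 9 and 0 from separate libraries. SIX2 stood at 36.7, 42.4 and 41.9 CPM in the condylar cartilage and 285, 196 and 188 CPM in the superficial zone (log2 fold change -2.55 ± 0.39, adjusted p = 0.00928). BARX1, a homeobox factor of the jaw mesenchyme and joints, stood at 26.9, 27.6 and 32.9 CPM in the condylar cartilage and 115, 75.5 and 72 CPM in the superficial zone (log2 fold change -1.65 ± 0.36, adjusted p = 0.0249). PAX9 (-1.40) and MEOX2 (-2.44) were also past the test. BARX1 did not pass without library 1 of the superficial zone (adjusted p = 0.0511). The superficial zone libraries were all above those of the condylar cartilage for 12 of the 19 genes and all below for 0, against 23.9% and 23.0% of all genes.

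Matrix proteases did not share 1 direction. MMP13 was higher in the condylar cartilage, whereas MMP2, a gelatinase, stood at 890.3, 917 and 988 CPM in the condylar cartilage and 4128, 2739 and 2707 CPM in the superficial zone (log2 fold change -1.86 ± 0.42, adjusted p = 0.0274). MMP1, a fibrillar collagenase, was near the limit of detection in both zones, with 0.279, 0.276 and 0.0677 CPM in the condylar cartilage and 3.59, 0.934 and 1.56 CPM in the superficial zone (log2 fold change -3.52 ± 0.89, adjusted p = 0.0414). MMP1 did not pass without library 1 of the superficial zone (adjusted p = 0.128). Those were the 3 of 10 metalloproteinases past the test, and separate libraries gave 1 genes higher in the condylar cartilage and 6 higher in the superficial zone. ADAMTS8, ADAMTS15 and ADAMTS16 were higher in the superficial zone among 16 ADAMTS proteases, with log2 fold changes of -3.64, -4.49 and -4.82. Their level in the condylar cartilage was at most 1.88 CPM, so the ratio rests on few counts there. With separate libraries 6 of the list were higher in the superficial zone, and without library 1 of that zone 5 were. Of 14 protease inhibitors and plasminogen activators, 1 was higher in the condylar cartilage and 1 in the superficial zone, against 2.38% and 4.1% of all genes. The former was SERPINE2, an inhibitor of serine proteases, with 131, 142 and 235 CPM in the condylar cartilage and 42.8, 69.1 and 63.7 CPM in the superficial zone (log2 fold change 1.77 ± 0.46, adjusted p = 0.0449). It did not pass without library 1 of the superficial zone (adjusted p = 0.162).

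Markers of other cells were not evenly spread. All 10 mural and smooth muscle genes tested had a negative log2 fold change (median -2.31), and 3 passed: ACTA2, smooth muscle actin (-2.99), the myosin MYH11 (-2.58) and TAGLN (-3.45). Separate libraries called 7 of the 10. VWF, the von Willebrand factor of endothelial cells, stood at 13.9, 15.1 and 11 CPM in the condylar cartilage and 148, 144 and 144 CPM in the superficial zone (log2 fold change -3.51 ± 0.76, adjusted p = 0.0236), yet the other 11 endothelial genes did not pass and the list median was -0.06. Of 9 Schwann cell and nerve genes, 2 were higher in the superficial zone, GFRA3 among them. The 9 skeletal muscle genes summed to 51.9, 88.9 and 40.5 CPM in the condylar cartilage and 418, 2116 and 2108 CPM in the superficial zone, and 0 passed the edgeR test (4 at an unadjusted p under 0.05, 4 with separate libraries, and 0 with DESeq2 and limma-voom). Muscle RNA was thus highest in libraries 2 and 3 of the OA superficial zone, while in control it was highest in library 3 of the condylar cartilage, at 3479 CPM. Its part in the other differences was not tested.

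Of 9 surface markers of progenitor cells and fibroblasts tested, 2 were higher in the superficial zone, 1 in the condylar cartilage and 6 were not called. Over all genes, 4.1% and 2.38% were higher in these zones, and the list median was 0.38. CD34 (-1.55) and MCAM (-2.03) were higher in the superficial zone than in the condylar cartilage. LEPR, the leptin receptor of marrow stromal cells, went the other way, with 11.8, 9.39 and 7.32 CPM in the condylar cartilage and 0.828, 0.409 and 0.646 CPM in the superficial zone (log2 fold change 3.77 ± 0.91, adjusted p = 0.0359). Of 14 inflammatory genes tested, 2 were higher in the condylar cartilage and 12 were not called. VCAM1, an adhesion molecule for leukocytes, stood at 28.8, 26.5 and 13.7 CPM in the condylar cartilage and 4.42, 3.09 and 5.28 CPM in the superficial zone (log2 fold change 2.26 ± 0.59, adjusted p = 0.045). The neutrophil attractant CXCL8 was scarcely detected, at 2.95, 3.09 and 1.63 CPM in the condylar cartilage and 0, 0.175 and 0 CPM in the superficial zone (log2 fold change 5.04 ± 1.23, adjusted p = 0.0441). Without library 1 of the superficial zone LEPR, VCAM1 and CXCL8 did not pass (adjusted p = 0.0719, 0.122 and 0.111). NR4A1 (-2.10) and NR4A3 (-2.42), nuclear receptors of the immediate early response, were higher in the superficial zone, and NR4A3 was not called without library 1 of that zone (adjusted p = 0.0713). NR4A1 and NR4A3 were the 2 of 16 immediate early genes past the test, against 4.1% of all genes higher in that zone. Among genes of oxidative phosphorylation, glycolysis and hypoxia, the unfolded protein response, glycosaminoglycan synthesis and the interferon response, 0 of 88 genes tested passed the edgeR test. At an unadjusted p under 0.05, 14 of the 88 did, against 3974 of all 14438 genes tested. DESeq2 called 5 of the 88 against 2102 of all genes, limma-voom 0 against 134, and the edgeR test on separate libraries 9 against 2879. In each case the share of the 88 was below that of all genes. These lists did not lean the same way. For glycolysis and hypoxia, 12 of 20 genes had all superficial zone libraries above the condylar cartilage and 0 all below, against 23.9% and 23.0% of all genes. The median of that list was -0.68, or -0.34 without library 1 of the superficial zone. In the unfolded protein response list 13 of 17 genes had a positive log2 fold change, with a median of 0.45.

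The difference between the zones in control joints was set beside that in OA. Library 3 of the control condylar cartilage stood apart: its cartilage matrix sum was 6347 CPM, against 78768 and 105980 CPM in libraries 1 and 2. That is below the 21819, 15025 and 26386 CPM of the control superficial zone. Its osteoblast and osteocyte sum was 6777 CPM, beside 6650 and 10192 CPM in libraries 1 and 2. In control, 465 genes were higher in the condylar cartilage (3.22%) and 616 in the superficial zone (4.27%), or 330 and 940 when counts were scaled by library totals alone. Of the 343 genes higher in the OA condylar cartilage, 129 were also called in that direction in control, which is 37.6% of the OA list and 27.7% of the control list, and 285 (83.1%) had the same sign, against 51.3% of all genes tested with that sign in control. Of the 592 higher in the OA superficial zone, 319 were also called in control, 53.9% of the OA list and 51.8% of the control list, and 584 (98.6%) had the same sign, against 48.6% of all genes tested. No gene in these 2 lists was called in the opposite direction in control. The median log2 fold change of the 343 genes was 2.41 in OA and 0.95 in control, and that of the 592 genes was -2.37 in OA and -1.55 in control. The lists were chosen on the OA values, so the 2 pairs of medians are a description and not a test.

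Among osteocyte genes, the log2 fold change of PHEX was 3.70 in OA and 5.30 in control, that of DMP1 3.78 and 5.41, and that of MEPE 4.23 and 5.21. For PHEX the level was 412, 354 and 479.9 CPM in the control condylar cartilage and 12.3, 8.87 and 10.6 CPM in the control superficial zone, so that its OA superficial zone was above that of the control in every library, while the condylar cartilage overlapped between OA and control. The interaction of PHEX had an unadjusted p of 0.0048 and an adjusted p of 0.415, and it did not pass. RSPO2 (-4.01 and -3.75), IGFBP6 (-3.74 and -3.76) and MMP13 (3.39 and 3.89) had log2 fold changes of the same sign and like size in OA and in control. LYZ, ALAS2 and PRG2 had 0.72, 0.60 and -0.71 in control against 3.03, 3.60 and 4.52 in OA, and none of the 3 was called in control.

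**Figure D4:**
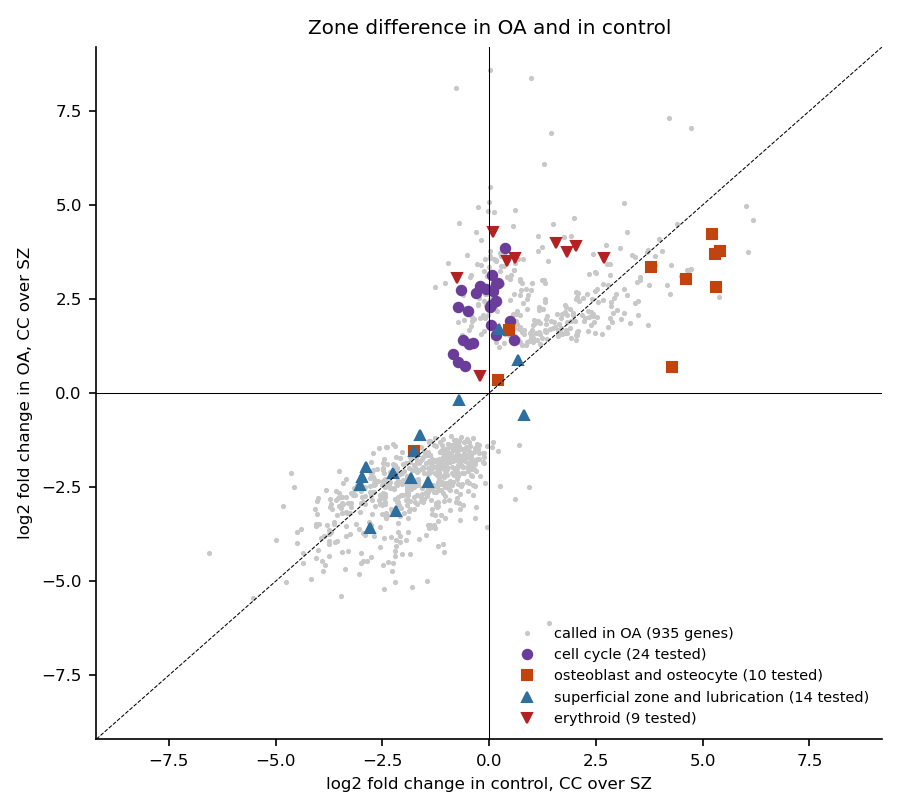
Log2 fold change of the condylar cartilage over the superficial zone in OA (vertical axis) against that in control (horizontal axis), for the 935 genes called in OA in grey and for all members tested of 4 lists; the dashed line marks equal values. Cell cycle genes lie near 0 on the control axis with a median of 2.29 in OA, and osteoblast and osteocyte genes have a median of 2.92 in OA and 4.44 in control.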

How the data were processed

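RNA from condylar cartilage and superficial zone tissue of rabbit temporomandibular joints was sequenced from 12 libraries, 3 in each of 4 groups. Per the labels' protocols, RNA was extracted with an RNeasy Micro kit, ribosomal RNA was removed with QIAseq FastSelect, and libraries were made with a NEBNext Ultra II Directional kit. Per the submitters' processing notes, the genome build was OryCun2.0 and the tools named are MultiQC 1.13, DESeq2 1.26.0, Salmon 1.1.0, StringTie 2.1.0, STAR 2.7.9a and Trim Galore 0.6.7. The authors deposited estimated counts per gene, whole numbers after rounding, and TPM values, and the latter were used for levels between genes.

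The counts were tested with the edgeR 4.0.16 quasi-likelihood F test (R 4.3.3) after TMM scaling and a filter at a minimum count of 10, which left 14438 of 14621 genes. All 4 groups entered 1 model with 10 samples, after the near-duplicate pairs were summed, so that n was 2 against 2 in OA and 3 against 3 in control. Benjamini-Hochberg adjustment ran over the whole table, and the threshold was 0.05. Named genes were, per direction, the 12 of smallest p among protein-coding genes with a symbol, a mean of at least 5 CPM in the higher zone and no overlap between the zones. The 41 gene lists, of which 13 mark cell types, and the comparison itself were chosen with earlier results of these data known. The deposited table names 9813 genes, and RefSeq gave symbols for another 1075 by gene ID. The alternatives were DESeq2 1.42.0, limma 3.58.1 with voom and sample weights (named limma-voom throughout), and other scalings and filters. Separate libraries, a replicate block and leaving out libraries were the others. The labels call the libraries biological replicates but name no animals, so the p-values rest on the spread among these libraries alone, which may be technical in part. A few members of the lists are counted but not reported here by name.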

Additional observations from a re-analysis of the deposited data

Results flagged for a closer look

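The 12 endothelial genes had medians, on the log2 CPM scale, of 4.61, 4.62 and 4.60 in OA condylar cartilage and of 4.81, 4.80 and 4.68 in OA superficial zone, a zone difference of -0.16 between the group means. In control it was 5.72, 5.46 and 5.56 in the condylar cartilage and 4.26, 4.20 and 4.34 in the superficial zone. Every OA condylar cartilage library was below every OA superficial zone library, and every control one above, which is why this value stands out. By gene, 6 of the 12 were called higher in the control condylar cartilage and 0 in the control superficial zone. In OA 0 and 1 were called in these zones, with 6 positive and 6 negative log2 fold changes. The difference between the 2 states was not tested for the list as a whole. Of its 12 genes, 7 had an unadjusted p under 0.05 in the interaction test of edgeR, 0 passed after adjustment over all genes, and 1 passed with separate libraries and 1 without the libraries that stand apart. Markers of blood vessels such as CDH5 and PLVAP make up the list.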

How the results depend on the processing

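The direction of the called genes described here did not change under any alternative run, but the number of calls did. In OA, 935 genes passed in the main test, against 2879 with 12 separate libraries, 1973 with the 6 OA libraries separate, 0 with the OA libraries alone and pairs summed, 2102 with DESeq2, 134 with limma-voom and 1751 without both libraries that stand apart (superficial zone OA 1 and condylar cartilage control 3). The control count of 1081 became 3427 with limma-voom and 2452 without those libraries, and the interaction count of 0 became 98, 106 and 97 with separate libraries, with DESeq2 and without those libraries. Separate libraries without OA superficial zone 1, chosen after seeing the data, gave 3146 in OA, 2666 in control and 460 for the interaction. Leaving out 1 library at a time gave 104 to 1402 calls in OA, 486 to 1816 in control and 0 for the interaction throughout; the lowest OA count was without condylar cartilage OA 3, where a lone sample is assumed to vary like the other groups, and the highest without condylar cartilage control 3. With the replicate block on separate libraries, 2445, 1306 and 92 genes passed. Same-numbered libraries had correlated deviations of 0.289, -0.114 and 0.286 in OA and 0.0252, 0.213 and -0.224 in control. OA superficial zone 2 and 3, which are near-duplicates, had 0.273 and 0.286 with OA condylar cartilage 3. The OA values therefore cannot show whether the libraries were pairs. The main test used no pairs because the summed samples carry no common replicate number. ACAN turned from -1.15 to 0.93 without OA superficial zone 1, 0.98 without both libraries and 0.88 with separate libraries that leave out OA superficial zone 1, but was -0.82 with all 12 separate. COL2A1 turned from -0.49 to 0.68 with the replicate block, 0.0494 with limma-voom, 0.12 with library totals, 2.90 without OA superficial zone 1, 2.94 without both libraries (adjusted p = 0.0378) and 2.79 with separate libraries that leave out OA superficial zone 1, but was -0.13 with all 12 separate. Leaving out 1 library gave -1.40 to 0.93 for ACAN and -0.95 to 2.90 for COL2A1. The cause of the changes was not tested beyond the smaller numbers of samples that the fits were built with. Depth limits genes near 1 CPM, such as MMP1, CALCR and GDF6.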

Other observations

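In the neurotrophic list 1 gene was higher in the superficial zone and 9 were not called, against 4.1% of all genes higher in that zone. RET, the signalling receptor that works with GFRA3-type co-receptors, stood at 5.57, 7.02 and 8.06 CPM in the condylar cartilage and 71.6, 38.5 and 39.4 CPM in the superficial zone (log2 fold change -2.94 ± 0.57, adjusted p = 0.0161), and it was the 1 of 10 neurotrophic genes past the edgeR test. All superficial zone libraries were above all condylar cartilage libraries, with library 1 the highest. Of 6 synovial and loose connective tissue fibroblast genes, 4 were higher in the superficial zone, and 3 of them, PDPN, THY1 and MFAP5, are also members of other lists, while IGFBP6 is among the 12 named genes. CIDEA, a lipid droplet protein, was the 1 of 6 adipocyte genes past the test (log2 fold change -2.97 ± 0.67, adjusted p = 0.0272). IL7R, the interleukin 7 receptor of lymphocytes, was the 1 of 6 lymphocyte genes past it, higher in the condylar cartilage at 2.45, 2.87 and 3.25 CPM in the condylar cartilage and 0.138, 0.292 and 0.162 CPM in the superficial zone (log2 fold change 3.85 ± 1.00, adjusted p = 0.0447), and it did not pass without library 1 of the superficial zone (adjusted p = 0.119). Among 11 cartilage regulators BARX1 alone passed, and it did not without library 1 of the superficial zone (adjusted p = 0.0511). The list median was 0.03.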
